A study of Mus musculus with 12 samples.

Results

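Expression of 10 genes of the inflammasome and of the interleukin-1 family was followed in the ileum of C57BL/6 mice fed different diets. The genes were Il1b, Il18, Il1a, Il1rn, Il18bp, Nlrp3, Nlrp6, Casp1, Pycard and Gsdmd. They were chosen by name from the 44205 genes in the RPKM table, with Il1b and Il18 values of HF_Sugar already known, and 10 of 10 were found. RPKM is the number of reads per kilobase of exon and per 1 M reads, so that levels of different genes can be set side by side. RNA sequencing covered 12 mice, 3 in each of 4 groups, which were 16 weeks old after 10 weeks on the diet from the age of 6 weeks. The NF group ate normal-fat chow with plain water (the normal diet, ND), and the NF_Sugar group ate normal-fat chow with a sugar drink (23% w/v). The HF group ate high-fat chow (60% of the energy as fat) with plain water, and the HF_Sugar group ate high-fat chow with the sugar drink (the Western diet, WD). The labels name no engineered allele, and each library came from ileum tissue of 1 mouse.

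Inflammasomes are cytosolic complexes in which a sensor such as NLRP3 or NLRP6 recruits the adaptor ASC, the product of Pycard, and through it the protease caspase-1. Caspase-1 cuts the precursors of IL-1β and IL-18 into active cytokines and cuts gasdermin D, which then forms pores in the plasma membrane. IL-1α is active without that cut. The receptor antagonist encoded by Il1rn blocks the IL-1 receptor, and the binding protein encoded by Il18bp captures free IL-18. In the gut, IL-18 and NLRP6 are known as products of epithelial cells, while IL-1β is known above all from myeloid cells. Sequencing measured mRNA, and cleavage or release of the proteins was not measured.

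The start regions of both IL-1 cytokine genes and of Il18 are given here because these are the cytokine genes of the set, whose levels were spread over the diets in different ways. Of the 10 genes, 9 had at least 1 promoter window in the RefSeq table of build GRCm38.p6 (250 bases before to 50 after the start site, 12 windows in all). The windows lie at chr2:129371090-129371389 on the minus strand for Il1b, at chr2:129309923-129310222 on the minus strand for Il1a and at chr9:50554450-50554749 on the plus strand for Il18. Capitals mark matches, on either strand, to the TATA pattern TATAAA, to the NF-κB-like pattern GGGNNNNNCC and to the C/EBP-like pattern TTNNGNAAT, where N is any base. The patterns do not overlap each other in these windows.
Il1b: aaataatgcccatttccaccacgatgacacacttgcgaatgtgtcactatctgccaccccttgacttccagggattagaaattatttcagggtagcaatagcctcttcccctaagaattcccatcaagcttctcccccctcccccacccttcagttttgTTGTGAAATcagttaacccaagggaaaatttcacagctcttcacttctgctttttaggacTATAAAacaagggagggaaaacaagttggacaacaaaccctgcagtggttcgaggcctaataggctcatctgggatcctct
Il1a: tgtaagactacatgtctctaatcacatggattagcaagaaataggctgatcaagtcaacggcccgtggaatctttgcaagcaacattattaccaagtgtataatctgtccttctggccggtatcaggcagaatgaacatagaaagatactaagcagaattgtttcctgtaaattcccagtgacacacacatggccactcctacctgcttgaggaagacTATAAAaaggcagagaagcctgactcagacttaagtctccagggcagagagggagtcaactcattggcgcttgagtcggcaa
Il18: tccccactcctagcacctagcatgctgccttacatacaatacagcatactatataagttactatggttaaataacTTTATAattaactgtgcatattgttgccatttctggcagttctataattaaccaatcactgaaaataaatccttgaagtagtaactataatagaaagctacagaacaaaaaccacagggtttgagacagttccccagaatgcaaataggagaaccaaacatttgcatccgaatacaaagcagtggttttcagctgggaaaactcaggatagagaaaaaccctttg

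In Il1b the TATAAA match spans -31 to -26, and in Il1a -32 to -27, counted from a start base of 0. In Il18 the only TATAAA match, on the opposite strand, lies at -175 to -170. Of 32851 mouse promoter windows of this length, 13.6% held TATAAA, 50.8% held GGGNNNNNCC and 11.5% held TTNNGNAAT. Among the other members, the windows of Nlrp3, Il1rn and Casp1 held GGGNNNNNCC, and that of Nlrp6 and the downstream Il1rn windows held TTNNGNAAT. A match is a run of letters and was not tested as a binding site.

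The 10 genes spanned a wide range of levels. By mean RPKM over the 12 libraries the order was Gsdmd (135), Pycard (55.5), Nlrp6 (46.2), Casp1 (27.3), Il18 (9.62), Il18bp (2.96), Il1b (1.16), Il1rn (0.471), Il1a (0.255) and Nlrp3 (0.255). The pore former, the adaptor, the epithelial sensor and the protease were thus the most abundant, and both IL-1 cytokines, the receptor antagonist and NLRP3 were low. Over the libraries the ranges of Pycard and Nlrp6 overlapped (36.8 to 69.6 against 29.2 to 56.5 RPKM). Ranges also overlapped for every later pair of neighbours in the order down to Nlrp3 except Casp1 and Il18 (17.9 to 37.7 against 2.80 to 17.7 RPKM). Within each library, however, Nlrp6 lay above Casp1 and Il18bp above Il1b. The other overlapping pairs changed order between libraries, as Pycard and Nlrp6 did in NF_Sugar replicate 1 (53.7 against 56.5 RPKM). Recovered depth ranged from 15.3 to 39.0 M reads per library. At that depth Gsdmd rested on 4537 to 12126 reads per library and Il1b on 12 to 141, which sets how firmly each can be read. Of the 10 genes, 8 reached 0.5 RPKM in at least 3 libraries and were tested, while Il1a and Nlrp3 did not and are given as values. Of 12 libraries, 4 stood apart from the other 8 on the first principal component (40.1% of the variance), 1 in each group, namely the second replicates of HF_Sugar, HF and NF and the first of NF_Sugar. None of the 10 genes separated those 4 libraries from the others. The ileum as labelled expressed its defining epithelial genes, among them Fabp6, the ileal bile acid binding protein, at a mean of 5009 RPKM.

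**Figure D1:**
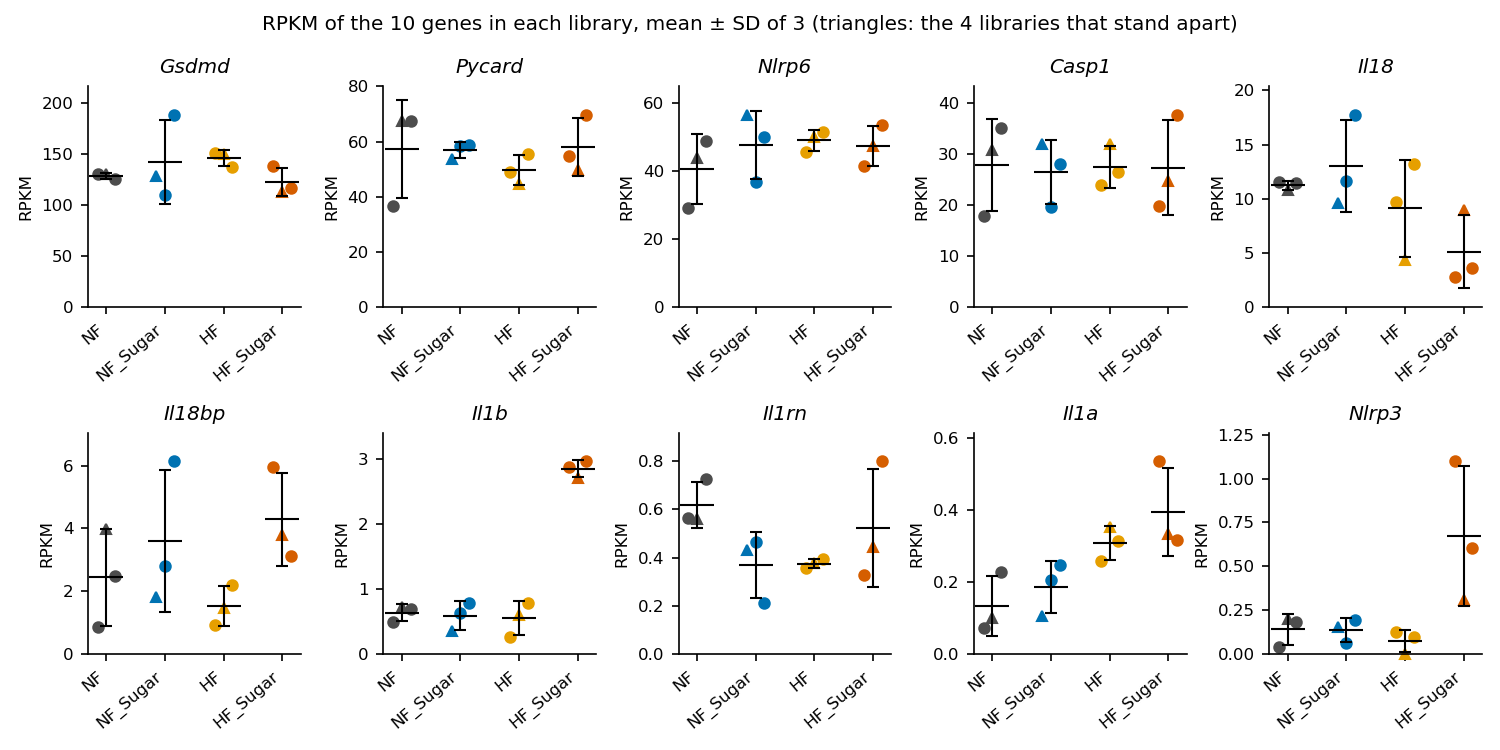
RPKM (vertical axes, from 0) of the 10 genes in the 12 ileum libraries by diet group (horizontal axes), ordered by mean level, with points for libraries, triangles for the 4 libraries that stand apart and bars for mean ± SD of 3. Il1b lies between 0.263 and 0.790 RPKM in 9 libraries and between 2.71 and 2.96 in HF_Sugar. The mean of Il18 is lowest in HF_Sugar, whose libraries overlap those of HF. Casp1, Pycard, Nlrp6 and Gsdmd overlap between HF_Sugar and NF.

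Il1b encodes IL-1β and lies on chromosome 2 (129364570 to 129371139, minus strand, GRCm38). Its RPKM was 0.484, 0.724 and 0.695 in NF, 0.353, 0.623 and 0.790 in NF_Sugar and 0.263, 0.606 and 0.778 in HF. In HF_Sugar it was 2.88, 2.71 and 2.96. The 3 HF_Sugar libraries lay above all others, and the other 3 groups overlapped. Mean RPKM was 0.635 ± 0.131 (SD, n = 3) in NF, 0.589 ± 0.221 in NF_Sugar, 0.549 ± 0.262 in HF and 2.85 ± 0.131 in HF_Sugar, a ratio of means of 4.50 to NF, 5.19 to HF and 4.85 to NF_Sugar. Because the choice of the genes had used the HF_Sugar values, these differences are a description without a test. In whole tissue, more or fewer cells of a type and more or less RNA per cell cannot be told apart.

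The HF_Sugar values of Il1b also differed in number format from its values in the other groups. An RPKM that comes from counting reads is a whole number of reads divided by gene length and depth. Turned back in this way, the 9 Il1b values outside HF_Sugar were 12 to 38 reads, each whole within 2.66e-05 read. In HF_Sugar they were 123.92, 141.46 and 92.05 reads, which lie 0.0813, 0.461 and 0.0528 from a whole number. At a tolerance of 0.1 read only replicate 2 was not whole, and at 0.03 none of the 3 was. Among genes whole within 0.03 read in the other 9 libraries, 7 of 21406 (0.0327%) were not whole in all 3 HF_Sugar libraries, and Il1b was among them, with Tnf, Tlr4, Ccr7, Tcf7, Lrrtm4 and Gm4409. The same count was 0 for NF, 0 for NF_Sugar and 2 for HF. At 0.1 read it was 6 for HF_Sugar, 4 for NF, 1 for NF_Sugar and 3 for HF, and at 0.2 read 4, 4, 1 and 0, and Il1b is not among the genes counted at these tolerances. Il1b values of HF_Sugar replicates 1 and 2 also carried 7 significant digits, which 10 of 35426 genes with a value above 0 in HF_Sugar (0.0282%) showed in at least 1 of its libraries. Of single values, 12 in HF_Sugar and 5 in NF carried 7 digits, and 0 in NF_Sugar and HF. The cause of the different format was not tested, and counting intervals for these values (for replicate 3, 74.2 to 113 reads by an exact Poisson interval of 95%) cover counting error only.

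**Figure D2:**
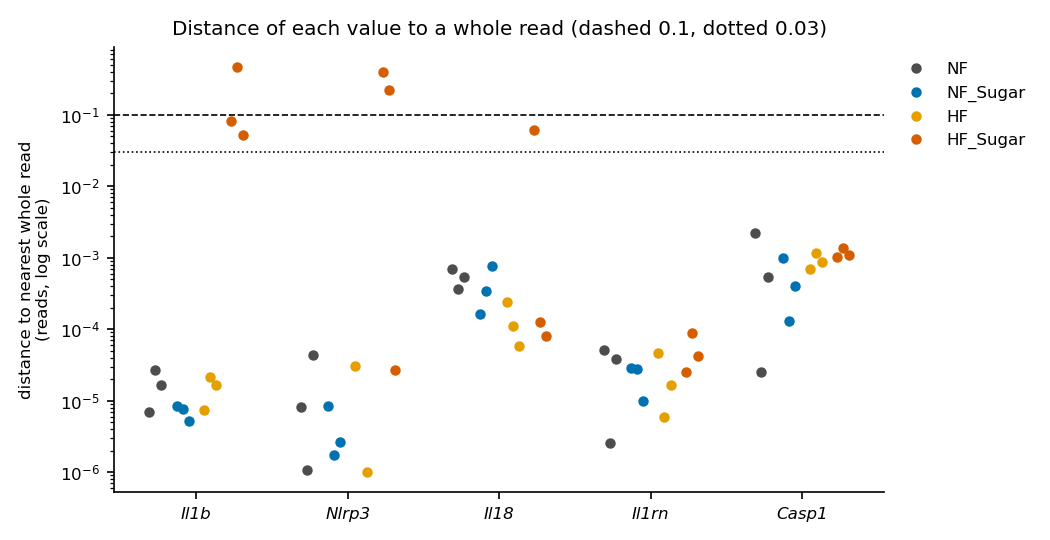
Distance of each value from the nearest whole read (vertical axis, log scale, drawn no lower than 1e-06) for the 5 genes that were whole in all 9 libraries outside HF_Sugar, with 1 point per library colored by group and without the Nlrp3 value of 0. All Il1b points of HF_Sugar, 2 of Nlrp3 and 1 of Il18 lie above 0.03 read, while Il1rn and Casp1 lie below it in every library.

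Il18 encodes IL-18 and lies on chromosome 9 (50554827 to 50581840, plus strand). Its RPKM was 11.5, 10.8 and 11.4 in NF, 9.58, 11.6 and 17.7 in NF_Sugar, 9.74, 4.35 and 13.2 in HF, and 2.80, 8.99 and 3.63 in HF_Sugar. In HF_Sugar each library lay below each library of NF and of NF_Sugar, while HF replicate 2 lay among the HF_Sugar values. Group means were 11.3 ± 0.413, 12.98 ± 4.24, 9.11 ± 4.48 and 5.14 ± 3.36 RPKM (SD, n = 3, in the same order). The ratio of the HF_Sugar mean to the NF mean was 0.457, and 0.280 without the 4 libraries that stood apart, since HF_Sugar replicate 2 was the highest of its group. Of the 12 Il18 values, 11 were whole reads within 0.000772, and HF_Sugar replicate 1 gave 64.94 reads and was deposited with 4 significant digits. Beside Il18, 11 of 11 epithelial markers were lower in HF_Sugar than in NF (median log2 difference -0.17, against -0.01 for all genes tested), none passed the limma test, and Krt18 lay below the other 9 libraries in all 3 HF_Sugar libraries. The markers were also lower than NF in the other diets, 11 of 11 in NF_Sugar (median -0.21) and 10 of 11 in HF (median -0.18). Without overlap, 4 of 11 lay below NF in HF_Sugar (2.97% of all genes tested), 2 in NF_Sugar (2.64%) and 2 in HF (2.97%), where 1 lay above NF. The summed level of the markers overlapped, at 8871 to 17027 RPKM in NF and 7530 to 15118 in HF_Sugar. Fabp6 alone ranged from 2557 to 9713 RPKM in NF and from 2415 to 9226 in HF_Sugar, so the sum says little about the other markers. None was at 0, and the part of the markers in the Il18 values was not tested.

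Il1a encodes IL-1α and lies beside Il1b on chromosome 2 (129299610 to 129309972, minus strand). Its RPKM was 0.0720, 0.0987 and 0.227 in NF, 0.106, 0.205 and 0.247 in NF_Sugar, 0.259, 0.352 and 0.312 in HF and 0.535, 0.334 and 0.316 in HF_Sugar. The HF and HF_Sugar values both lay above all NF and NF_Sugar values and overlapped each other. How many genes under the filter separated in this way was not counted. The Il1a values came from 5.00 to 23.8 reads per library, so the precision of each value is low. Il1a gave fractions of reads in all groups, in 7 of the 9 libraries outside HF_Sugar, unlike Il1b.

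Il1rn encodes the IL-1 receptor antagonist (chromosome 2, 24336853 to 24351494, plus strand). Its RPKM was 0.566, 0.558 and 0.726 in NF, 0.433, 0.465 and 0.213 in NF_Sugar, 0.355, 0.376 and 0.393 in HF and 0.329, 0.442 and 0.799 in HF_Sugar. Each NF library lay above each HF and each NF_Sugar library, and HF_Sugar overlapped all groups. The gene reached 0.5 RPKM in the 3 NF libraries and in HF_Sugar replicate 3 alone, so it entered the test through the group where it was high. All 12 values were whole reads, 18 to 122 per library.

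Il18bp encodes the binding protein of IL-18 (chromosome 7, 102014885 to 102018690, minus strand). Its RPKM was 0.861, 3.97 and 2.49 in NF, 1.82, 2.80 and 6.14 in NF_Sugar, 0.935, 1.46 and 2.21 in HF and 5.95, 3.79 and 3.12 in HF_Sugar. The HF_Sugar libraries lay above the HF libraries and overlapped NF and NF_Sugar. The ratio of the HF_Sugar mean to the NF mean was 1.76, and 2.70 without the 4 libraries that stood apart, as NF replicate 2 was the highest of its group.

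Each cytokine was then set against its antagonist within a library, a description chosen after the values were seen. The ratio of Il1b to Il1rn in RPKM was 0.856 to 1.30 in NF, 0.815 to 3.71 in NF_Sugar, 0.741 to 1.98 in HF and 3.71 to 8.77 in HF_Sugar. The lowest HF_Sugar value and the highest NF_Sugar value were nearly the same (3.711 and 3.709). The ratio of Il18 to Il18bp was 2.72 to 13.4 in NF, 2.89 to 5.26 in NF_Sugar, 2.99 to 10.4 in HF and 0.470, 2.37 and 1.16 in HF_Sugar. Thus the HF_Sugar libraries were the 3 highest in the first ratio, with almost no margin to NF_Sugar replicate 3, and the 3 lowest in the second.

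**Figure D3:**
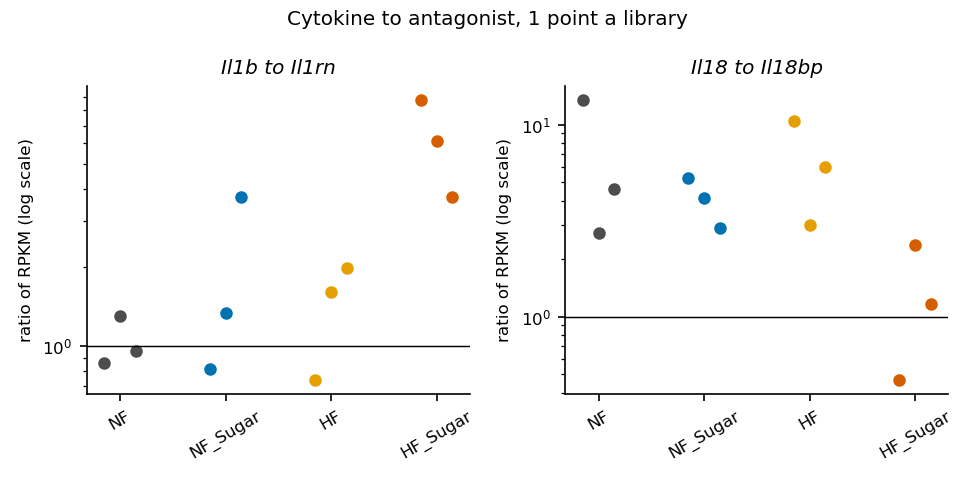
Ratio of cytokine to antagonist in RPKM (vertical axes, log scale) in each of the 12 libraries by diet group. Il1b to Il1rn reaches 8.77 in HF_Sugar, where its lowest value, 3.71, meets NF_Sugar replicate 3, and Il18 to Il18bp in HF_Sugar lies at 0.470 to 2.37, below the other 9 libraries.

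Nlrp3 encodes the sensor known from macrophages (chromosome 11, 59541568 to 59566956, plus strand). Its RPKM was 0.0379, 0.197 and 0.184 in NF, 0.155, 0.0610 and 0.194 in NF_Sugar, 0.124, 0 and 0.0975 in HF and 1.098, 0.308 and 0.605 in HF_Sugar. The 0 of HF replicate 2 allows a level of up to 0.0342 RPKM (3 reads). The 3 HF_Sugar libraries lay above all others, and the share of genes under the filter that did so was not counted. The ratio of means to NF was 4.80, and 7.69 without the 4 libraries that stood apart. Nlrp3 resembled Il1b in number format, since the other 9 values were 0 to 22 whole reads and the HF_Sugar values were 100.39, 34.22 and 40 reads. In HF_Sugar 1 Nlrp3 value carried 7 significant digits, and Nlrp3 and Il1b were both among the 10 of 35426 genes (0.0282%) with such a value there. At a tolerance of 0.1 read, 195 of 21778 genes (0.895%) that were whole elsewhere were not whole in at least 1 HF_Sugar library, Il1b and Nlrp3 among them. The share was 1.86% for NF, 0.775% for NF_Sugar and 0.846% for HF.

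Levels of the other sensor and of the machinery overlapped between NF and HF_Sugar. Nlrp6, the epithelial sensor (chromosome 7, 140920902 to 140929192), had group means of 40.7 ± 10.2, 47.8 ± 9.99, 49.0 ± 3.01 and 47.4 ± 5.97 RPKM in NF, NF_Sugar, HF and HF_Sugar (SD, n = 3). Pycard, the adaptor (chromosome 7, 127989708 to 127993867), had 57.2 ± 17.7, 57.0 ± 2.86, 49.7 ± 5.44 and 58.0 ± 10.4 RPKM. Casp1, the protease (chromosome 9, 5298517 to 5307265), had 27.9 ± 8.93, 26.5 ± 6.27, 27.4 ± 4.10 and 27.4 ± 9.25 RPKM. Gsdmd, the pore former (chromosome 15, 75862327 to 75867408), had 129 ± 3.03, 143 ± 41.0, 146 ± 7.72 and 123 ± 13.96 RPKM. In Nlrp6, Pycard and Casp1 all 4 groups overlapped each other. In Gsdmd the 3 HF libraries (137 to 151) lay above the 3 NF libraries (126 to 131) in RPKM as deposited, and no longer did after TMM scaling. Log2 differences of these 4 genes in HF_Sugar against NF were -0.13 to 0.19, none of them above its standard error of 0.20 to 0.28. Casp1 values were whole reads in all 12 libraries. Nlrp6, Pycard and Gsdmd exceeded 2000 reads, the limit up to which values were checked. Turned back into reads, each of them lay over 0.1 from a whole number in 6 of the 9 libraries outside HF_Sugar. In HF_Sugar 0, 3 and 3 libraries did so.

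High fat and the sugar drink alone were tested, since the genes were chosen with HF_Sugar against NF in view. The tests are not independent of that choice. NF was its baseline, and the fit took its spread from all groups, HF_Sugar included. The test was limma on log2(TMM-scaled RPKM + 1) over all 17662 genes that passed the level filter, with Benjamini-Hochberg adjustment, and TMM scaling removes differences in composition between libraries. In HF against NF no gene was called (0 of 17662 genes, 0%, with 665 at an unadjusted p under 0.05), and 0 of the 8 tested members were called. Log2 differences were -0.25 ± 0.12 (SE) for Il1rn, -0.44 ± 0.41 for Il18, -0.40 ± 0.41 for Il18bp, -0.11 ± 0.14 for Il1b, -0.21 ± 0.21 for Pycard, -0.04 ± 0.28 for Casp1, 0.12 ± 0.20 for Gsdmd and 0.24 ± 0.21 for Nlrp6. Without HF replicate 2 the difference of Il18 was -0.052, and without NF replicate 2 that of Il18bp was -0.030. The median of the 8 was -0.16 (2 higher, 6 lower), against -0.01 over all genes tested. Adjusted p by limma was 0.9997 for each of the 8.

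In NF_Sugar against NF no gene was called either (0 of 17662, 0%, with 327 at an unadjusted p under 0.05). Il1rn was at -0.24 ± 0.12 and Il18bp at 0.41 ± 0.41 (0.031 without NF replicate 1, 0.048 without NF_Sugar replicate 3, 0.78 without NF replicate 2, 1.05 without the 4 libraries that stood apart), and the other 6 lay between -0.05 and 0.23. The median of the 8 was 0.07 (5 higher, 3 lower), against -0.01 over all genes, and the adjusted p by limma was 0.9999 for each. For Il1rn both tests are conditioned on its high NF values, through which it passed the filter, and they are not read further. The p-values set each difference against a spread between mice that was estimated from all 4 groups of 3 and drawn toward the trend over all genes. They do not show that the groups were alike.

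**Figure D4:**
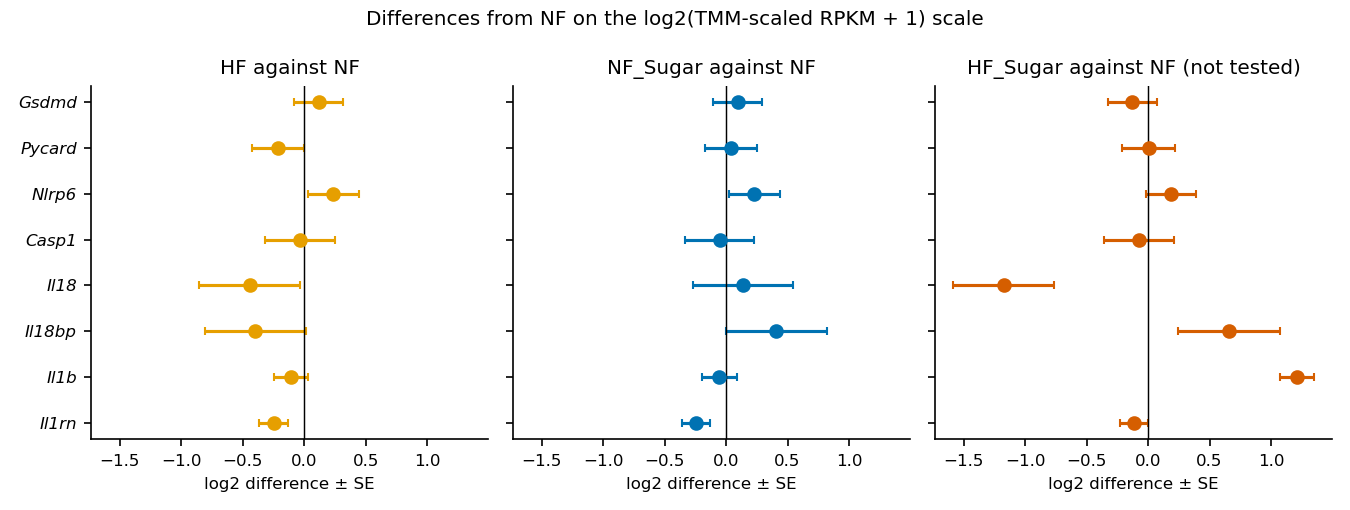
Log2 difference from NF with its standard error (horizontal axes, log2 of TMM-scaled RPKM + 1) for the 8 tested members in HF, NF_Sugar and HF_Sugar, the last without a test. In HF and NF_Sugar the points lie between -0.44 and 0.41, and in HF_Sugar Il1b is at 1.21 and Il18 at -1.18.

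Calls over all genes in the HF_Sugar comparisons are given as background and are not evidence on the members. They were 0 of 17662 (0%) against NF, 1 (0.00566%) against HF and 0 (0%) against NF_Sugar, with 781, 787 and 305 genes at an unadjusted p under 0.05. The 1 gene counted against HF was Il1b, whose HF_Sugar values had been known in the choice, so this is no test of it. The log2 scale used adds 1 to each TMM-scaled RPKM, so the same ratio moves a low gene such as Il1b less than Il18. Ratios of means to NF were 4.50 for Il1b and 0.457 for Il18. On this log2 scale Il1b differed by 1.21 ± 0.14 (SE) from NF, 1.32 ± 0.14 from HF and 1.26 ± 0.14 from NF_Sugar. Il18 differed by -1.18 ± 0.41, -0.73 ± 0.41 and -1.31 ± 0.41, and Il18bp by 0.66 ± 0.41, 1.06 ± 0.41 and 0.25 ± 0.41. Il1rn differed by -0.12 to 0.13 over the same comparisons, which share the HF_Sugar libraries.

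Separation of groups without overlap was counted in the same way for members and for all genes tested. In HF against NF, 1 of 8 members lay higher (Gsdmd, background 5.37%) and 1 lower (Il1rn, background 2.97%). In NF_Sugar against NF, 0 of 8 lay higher (background 3.22%) and 1 lower (Il1rn, background 2.64%). In HF_Sugar against NF, 1 lay higher (Il1b, background 7.21%) and 1 lower (Il18, background 2.97%). In HF_Sugar against HF, 2 lay higher (Il1b and Il18bp, background 4.69%) and 0 lower (background 5.15%). In HF_Sugar against NF_Sugar, 1 lay higher (Il1b, background 4.29%) and 1 lower (Il18, background 1.64%). In HF_Sugar against all 9 other libraries, 1 lay higher (Il1b, background 0.532%) and 0 lower (background 0.215%). Nothing is read from the HF_Sugar counts, as their values were known when the genes were chosen, and Il1rn had entered the test through NF.

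Other genes of the pathway came from 5 lists, of which 60 genes were matched and 40 reached the level for testing. None of the 40 was called in HF against NF or in NF_Sugar against NF by limma. Among other IL-1 ligands, 2 of 6 were used here, Il33, an alarmin of barrier tissue, at 1.18 RPKM on average, and Il1f10, which had 0 reads in 9 of 12 libraries. Of receptors and adaptors 9 of 15 were tested, with a median log2 difference of -0.03 in HF and 0.03 in NF_Sugar against NF. The most abundant were Tollip (16.6 RPKM), Myd88, the adaptor of IL-1 and Toll-like receptors (13.7 RPKM), and the inhibitory receptor Sigirr (11.3 RPKM).

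Of the other sensors 8 of 12 were tested, with medians of 0.04 in HF and 0.04 in NF_Sugar against NF. In HF_Sugar against NF, 7 were higher and 1 lower (median 0.15), and 4 lay above NF without overlap (background 7.21%). Against HF, 1 lay above (background 4.69%) and 2 below (background 5.15%) without overlap, and against NF_Sugar 0 did. The HF_Sugar counts of these sensors are a description without a test. The most abundant were Naip5 (25.8 RPKM), Naip6 (19.2 RPKM) and Naip1 (16.0 RPKM), receptors for bacterial flagellin and secretion proteins. Nlrp10 lay under the filter, at 0.0882 to 0.187 RPKM in HF_Sugar and 0.00570 to 0.0549 in the other 9 libraries, from 1 to 19.0 reads. Of regulators, other caspases and pore formers 14 of 16 were tested. Their medians against NF were -0.11 in HF, -0.01 in NF_Sugar and, without a test, 0.12 in HF_Sugar (10 higher, 4 lower). Txnip, a partner of NLRP3, led them with 109, 113, 162 and 142 RPKM in NF, NF_Sugar, HF and HF_Sugar, at a log2 difference of 0.49 ± 0.17 in HF that missed the threshold (limma adjusted p = 0.9997). Casp8, an initiator caspase, was at 36.4 RPKM on average. Gbp5, an interferon-induced GTPase that promotes NLRP3 assembly, was under the filter. It lay at 0.457 to 0.676 RPKM in HF_Sugar and 0.151 to 0.453 in the other 9 libraries. Nlrp10 and Gbp5 are given as values, since the share of genes under the filter that separated so was not counted.

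Among genes known to be induced by IL-1 and NF-κB, 8 of 15 were tested and 7 of these 8 were lower in HF than in NF, with a median log2 difference of -0.39 (all genes, -0.01). None was called. The examples with the highest level were Nfkbia, the inhibitor of NF-κB, at -0.77 ± 0.17, Nos2, the inducible nitric oxide synthase, at -1.12 ± 0.41, and Nfkbiz at -0.37 ± 0.26 (SE, limma adjusted p = 0.9997 each). The summed level of the list was 104 to 108 RPKM in NF and 85.0 to 91.2 in NF_Sugar. It was 51.2 to 71.0 in HF and 72.6 to 124 in HF_Sugar. Most of it came from Nfkbia and Nos2, with NF means of 55.8 and 32.3 RPKM. In NF_Sugar against NF 4 were higher and 4 lower (median 0.12). HF_Sugar had 8 of 8 higher than HF (median 0.43), and 5 higher and 3 lower than NF (median 0.05). Icam1, an adhesion molecule of inflamed endothelium, was the only tested gene of these lists whose HF_Sugar libraries (2.23 to 4.07 RPKM) lay above the other 9 (1.11 to 2.08 RPKM). That is 1 of 40, beside 0.532% of all genes.

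Markers of cells that could carry the cytokines are given beside Il1b and Nlrp3. Of 11 macrophage and monocyte markers 9 were tested, 8 of them higher in HF_Sugar than in NF (median log2 difference 0.16), and none was called or free of overlap. Their summed RPKM overlapped between groups, at 92.9 to 122 in NF, 94.8 to 180 in NF_Sugar, 69.6 to 190 in HF and 91.2 to 185 in HF_Sugar, and Lyz2 made up most of it. Without Lyz2, left out after the values were seen, the sums were 16.3 to 22.0, 16.5 to 22.3, 12.8 to 18.2 and 18.1 to 26.9 RPKM. By replicate, the HF_Sugar sums were 24.8, 18.1 and 26.9 RPKM, with Il1b at 2.88, 2.71 and 2.96 RPKM. The highest sum outside HF_Sugar was 22.3 RPKM in NF_Sugar replicate 2, with Il1b at 0.623 RPKM. Of 8 neutrophil markers 1 was tested, their sum was 0.757 to 2.25 RPKM in all 12 libraries, Ly6g was at 0 in all of HF_Sugar and S100a9 in all of HF. Of 7 dendritic cell markers 2 were tested, and the sum was 2.40 to 4.85 RPKM in NF and 3.86 to 5.33 in HF_Sugar. All 7 B cell markers were higher in HF_Sugar than in NF (median 0.32, sums 27.5 to 32.0 against 30.6 to 51.7 RPKM), and 4 of 7 T cell markers were (median 0.01, sums 7.74 to 14.6 against 11.7 to 15.4 RPKM). Smooth muscle markers were lower in 6 of 6 (median -0.29, sums 432 to 786 against 404 to 745 RPKM). In HF against NF, 7 of 7 B cell markers were higher as well (median 0.43) and 6 of 6 smooth muscle markers lower (median -0.27). The part of these cells in the levels of Il1b and Nlrp3 was not tested.

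**Figure D5:**
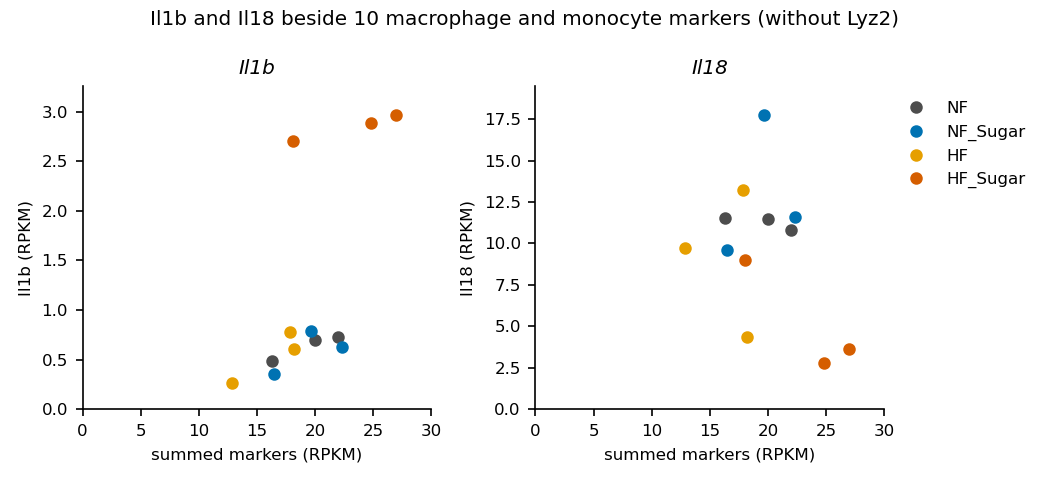
Il1b and Il18 RPKM (vertical axes) against the summed RPKM of 10 macrophage and monocyte markers without Lyz2 (horizontal axes), with 1 point per library colored by group. Il1b of HF_Sugar lies between 2.71 and 2.96 RPKM at marker sums of 18.1 to 26.9 RPKM, and 9 libraries with sums of 12.8 to 22.3 RPKM lie at 0.790 RPKM or less.

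Genes with the pattern most like Il1b and Il18 were sought among 10573 named genes with a mean of at least 1 RPKM, by Pearson's r of log2(RPKM + 1) over the 12 libraries, as a description without a test. Nearest to Il1b were Tnks2 (r = 0.93, Spearman's rho = 0.85), Cxcl10 (r = 0.92, rho = 0.76), Csf2rb (r = 0.90, rho = 0.67), Ifit3b (r = 0.89, rho = 0.76) and Zwint (r = 0.88, rho = 0.90). Cxcl10, an interferon-induced chemokine, had a mean of 3.37 RPKM in HF_Sugar and 0.951 in the other 9 libraries. These values rest on the gap between HF_Sugar and the rest, and after group means were removed r for these 5 genes was 0.36 to 0.71. Nearest to Il18 were Nabp2 (r = 0.87, rho = 0.84), Snord35a (r = 0.87, rho = 0.79), Cd3eap (r = 0.86, rho = 0.82), Psmc4 (r = 0.85, rho = 0.91) and Aven (r = 0.85, rho = 0.59), with 0.78 to 0.93 after group means were removed. All points share libraries and depth. No gene was among the 5 nearest to Il1b by Spearman's rho as well, and 2 were for Il18 (Nabp2 and Psmc4).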

How the data were processed

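RNA from the ileum of 12 mice was sequenced, 3 in each of 4 diet groups. By the study's methods, the authors mapped Ion Proton reads to mm10 in Partek Flow with STAR and Ensembl annotation, and deposited a table of 44231 rows, of which 26 named by bare numbers were left out. The file does not name its unit, which was taken as RPKM because the supplement gives expression of other genes in RPKM and low deposited values step by gene length and depth. The 12 per-sample files were identical to their table columns. RPKM hold no counts, so the count test of the study was not run. Read numbers were recovered from the steps between low values and exon lengths of GENCODE M21 (40519 genes matched), which gave 15.3 to 39.0 M reads per library, 85.8% to 87.5% of low values being whole within 0.03 read. Values up to 2000 reads were checked for fractions over 0.1 read.

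Genes entered the tests if 3 or more libraries reached 0.5 RPKM (17662 genes), and log2(TMM-scaled RPKM + 1) was fitted with limma 3.58.1 in R 4.3.3 (8 residual degrees of freedom, all groups), with Benjamini-Hochberg adjusted p under 0.05. In simulated HF against NF data, limma called 69% of genes changed by log2 1 and 90% by log2 2, with 10 other genes called. The simulated noise was independent between genes, without the shared deviation of the libraries that stood apart. Changes were set on the log2(RPKM + 1) scale, where the same ratio moves a low gene less. These shares therefore do not apply to low members such as Il1b. Tables and figures used Python 3.11.15 with pandas 2.3.3, matplotlib 3.10.9, numpy 2.4.6 and scipy 1.17.1. The members, lists and tests were chosen with earlier results of these data known. Named were all members, the 3 highest genes of each other list, list genes that were called or whose HF_Sugar libraries lay outside the other 9, and the 5 genes nearest to Il1b and to Il18. Symbols of 117 of 121 list genes matched. A gene that this rule named is not reported here. Alternatives were other scalings, pseudocounts and filters, the 2 groups alone, a replicate block, a library-cluster covariate, no irregular genes, the study's thresholds and leaving out libraries. Same-numbered mice of HF_Sugar and NF (r 0.19 to 0.51) and of HF_Sugar and HF (0.13 to 0.56) deviated together from their group means, those of other pairs did not all do so.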

Additional observations from a re-analysis of the deposited data

How the results depend on the processing

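With the low-value filter removed, 4, 4 and 5 genes were called in HF, NF_Sugar and HF_Sugar against NF, where 0 were called with it. Leaving out 1 library gave 0 to 1 calls in each of these comparisons, the 1 coming without HF replicate 1, NF replicate 1 and NF replicate 1. In HF_Sugar against HF the count of 1 was Il1b, which is no test of it since its HF_Sugar values were known in the choice, at a log2 difference of 1.32. The count was 0 with pseudocounts of 0.1 and 0.5, no filter, a mean of at least 2 RPKM (where Il1b is not tested), the 2 groups alone, the 4 libraries apart left out, their cluster as covariate, irregular genes left out (Il1b among them) and the study's thresholds, and when leaving out any library (0 to 0). It was 1 with no scaling, median-of-ratios scaling and the replicate block. With the replicate block as a paired fit, Il1b differed from NF by 1.21 as without it, and no call changed. Il1b in HF_Sugar against NF was 1.97 with a pseudocount of 0.1 and 1.53 with 0.5, and Il18 kept its direction throughout (-0.91 to -1.61 leaving out 1 library, the ends without HF_Sugar replicates 1 and 2).

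Over the 16 member differences in HF and NF_Sugar against NF, 282 refits gave no call and 16 changes of direction, all in Il1b, Il18, Casp1, Pycard or Gsdmd. Casp1 in HF was 0.021 without scaling, Pycard in HF 0.039 and Il1b in NF_Sugar 0.11 without the 4 libraries apart. Leaving out 1 library gave, in HF, -0.21 to 0.029 for Il1b and -0.29 to 0.11 for Casp1, and in NF_Sugar -0.14 to 0.048 for Il1b, -0.077 to 0.29 for Il18, -0.31 to 0.15 for Casp1, -0.22 to 0.23 for Pycard and -0.10 to 0.27 for Gsdmd. After TMM scaling 0 of the 8 tested members lay above NF in HF. Il18 in HF was -0.052 without HF replicate 2. Il18bp in NF_Sugar was 0.031 without NF replicate 1, 0.048 without NF_Sugar replicate 3 and 1.05 without the 4 libraries apart. Among the 5 members that were whole outside HF_Sugar, values that were no whole read numbered 6 at 0.03 against 3 at 0.1. Spearman's rho shared 0 and 2 of the 5 nearest genes of Il1b and Il18. The causes were not tested. With 3 mice a group and 12 to 141 Il1b reads, small differences were not detectable.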

Other observations

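Fractions of reads that appeared in HF_Sugar alone were also found in 3 genes of the other lists that were whole in the 9 other libraries, at a tolerance of 0.1 read and up to 2000 reads (Nos2, above that limit, is left out). Nlrp10 gave 18.98, 11.47 and 6.47 reads in HF_Sugar, the T cell marker Cd8b1 gave 11.34, 11 and 14.41, and Cd4 gave 199.17, 170.09 and 147.0. In the reverse direction, Irak3, P2rx7, Cx3cr1, Cd3e and Retnlg were whole in HF_Sugar at 0.1 read and gave a fraction in 1 or 2 of the other 9 libraries.

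Within the members, the pair with the highest correlation after group means were removed was Nlrp6 and Casp1 (r = 0.93 over 12 libraries, and r = 0.82 before), an epithelial sensor and the protease it acts through. Il1b and Nlrp3 had r = 0.83 over 12 libraries and 0.12 after group means were removed, and Il1b and Il18 had -0.62 and 0.14. These correlations are descriptions over libraries that share depth and tissue make-up.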
